A study of Mus musculus with 20 samples.

Results

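The 37 genes described here encode peroxisomal proteins: 13 peroxins (Pex genes), which build the organelle, and 24 enzymes and membrane proteins that work in it. They were taken by gene symbol from a count table of 55822 genes, and each of the 37 had 1 row. The study used 8-week-old males of the inbred mouse strain C57BL/6J. Once daily they were given phosphate-buffered saline (PBS, the control), puberulic acid (1 mg/day), or a normal or toxic lot of the supplement Choleste-Help (1000 mg/day). Puberulic acid, a tropolone, is a product of Penicillium moulds. Each animal received 6 administrations and whole kidneys were taken on day 7, with 5 samples per group. The series design describes dosing by mouth, whereas the treatment protocol allows gavage or intraperitoneal injection, so the route of a given animal is not known here. The comparison is between the 5 control and the 5 puberulic acid kidneys. The values of both supplement lots are not analysed here, because the names of their columns do not show which lot they hold.

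Peroxisomes break down very long-chain, branched and dicarboxylic fatty acids by beta oxidation, shorten the branched phytanic acid at its carboxyl end by alpha oxidation, make the first intermediates of ether lipids, and oxidise D-amino acids and 2-hydroxy acids. Their oxidases release hydrogen peroxide, which catalase destroys. Matrix proteins are made in the cytosol and carried in by the receptors Pex5 and Pex7, while Pex3, Pex16 and Pex19 place membrane proteins, and the Pex11 proteins elongate and divide the organelle. In the kidney, peroxisomes are most abundant in the proximal tubule.

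The puberulic acid comparison addresses which kidney transcripts differ after the compound. Total estimated counts ran from 18409877 to 22725274 in the controls and from 19897287 to 24705587 with puberulic acid. Proximal tubule markers fell: 9 of 9 markers of all segments, 4 of 4 of segments S1 and S2 and 5 of 6 of segment S3 were lower, and the summed level of the first list went from 9673 to 14295 CPM (counts scaled to a common library size) in the controls to 1048 to 1999 CPM with puberulic acid. Among all genes tested 31.1% were lower and 34.2% higher. Markers of other tubule segments were lower too, 3 of 3 of the distal tubule and 4 of 5 of the collecting duct. In the thick ascending limb and podocyte lists 1 of 3 each was lower, near the share of all genes. Of the endothelium markers 2 of 4 were lower. The median log2 fold changes of these 3 lists were -0.11, -0.69 and -0.66, and the groups overlapped for every marker in them. All 7 markers of injured tubule were higher, as were 4 of 7 leukocyte and 3 of 4 fibroblast markers. Puberulic acid replicate 1 had the highest summed proximal tubule level of its group, at 1999 CPM against at most 1196 CPM in the others. Puberulic acid replicate 3 stood apart in markers of neighbouring tissue, with a summed level of 115 CPM over 4 adipocyte markers against at most 6.13 CPM in the rest of its group, and of 49.3 CPM over 5 adrenal cortex markers against at most 3.21 CPM. Adipoq, a defining adipocyte marker, was at 0 in all controls. The count of members that were lower was 36 with all libraries and also 36 without either of these replicates. The part that cell makeup plays in the results below was not tested, and in whole kidney fewer cells of a type and less RNA per cell cannot be told apart.

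Peroxisomal transcripts fell almost as a block with puberulic acid. With edgeR's quasi-likelihood test, adjusted by Benjamini-Hochberg over 16266 genes and called at an adjusted p under 0.05, 36 of the 37 genes were lower and 0 were higher, where 31.1% of all genes tested were lower and 34.2% higher. The exception was Hacl1, an alpha oxidation lyase. For 36 of the 37 genes every treated kidney lay below every control by CPM, while the group ranges were apart, in either direction, for 50.1% of all genes. A fall of at least 2-fold was found for 27 of the 37, against 13.6% of all genes, and a rise of at least 2-fold for 0 of the 37, against 18.7% of all genes. With the libraries scaled to total counts, fewer of the 37 fell by at least 2-fold. Of all genes tested, 65.3% passed the test in either direction. The median log2 fold change was -1.58 over the 37 genes and 0.05 over all genes tested.

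Enzymes and membrane proteins had the larger decreases. Their median log2 fold change was -1.76, with 21 of 24 at least 2-fold lower, whereas the 13 peroxins had a median of -0.98, with 6 of 13 at least 2-fold lower. With the libraries scaled to total counts the peroxin median was -0.48, and only Pex11a (-1.02) and Pex11g (-1.38) fell by at least 2-fold. Among the enzymes Decr2 (-0.89), Ddo (-0.93) and Agps (-0.92) then fell short of 2-fold too. The 24 enzyme and membrane protein genes together took 0.785% ± 0.0312 of all counts in the controls and 0.264% ± 0.0520 in the treated kidneys (SD, n = 5 each). The peroxins took 0.0613% ± 0.0021 in the controls and 0.0445% ± 0.0038 in the treated kidneys (SD, n = 5 each). These shares are relative to total counts, without the TMM factors, and neither overlapped between the groups.

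**Figure D1:**
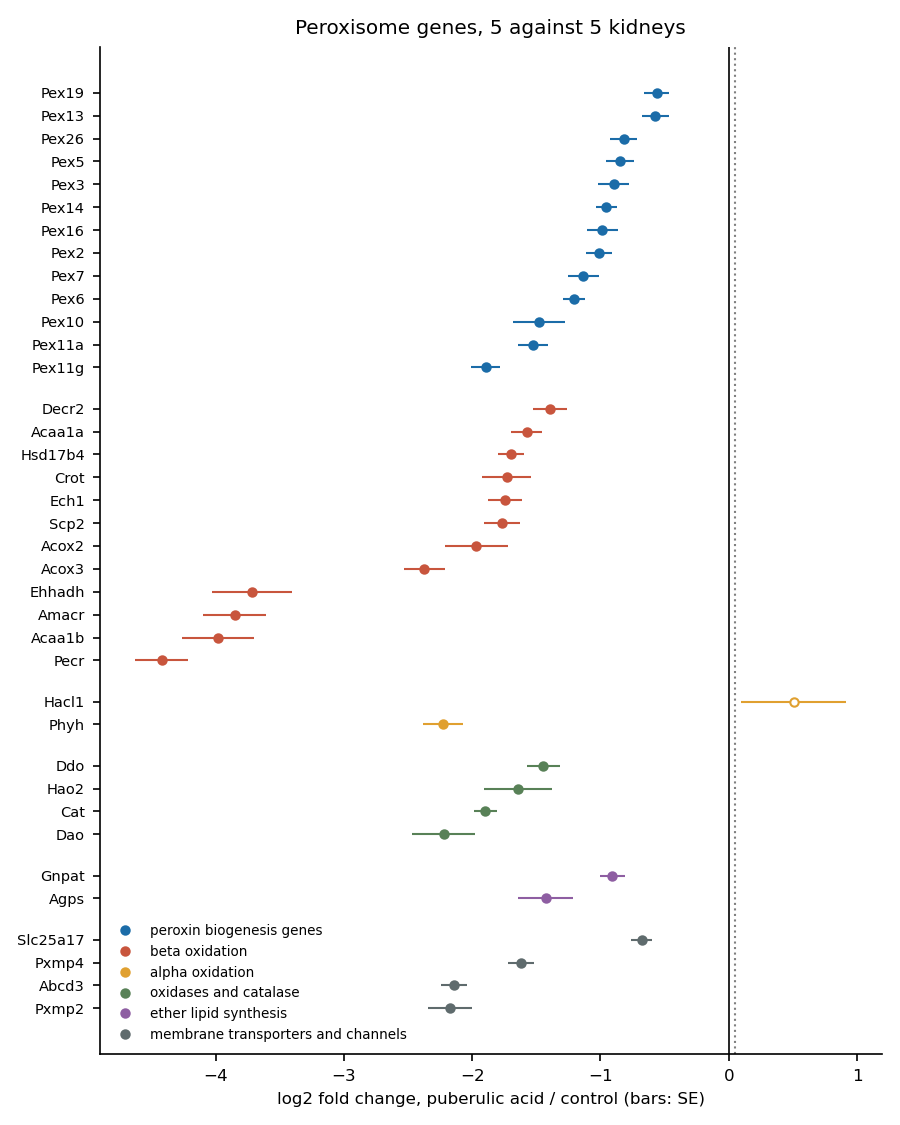
Log2 fold change of each of the 37 genes, puberulic acid against control, with bars for the standard error, grouped by role. Filled points had an adjusted p under 0.05, the open point (Hacl1) did not, and the dotted line is the median of all genes tested, 0.05.

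**Figure D2:**
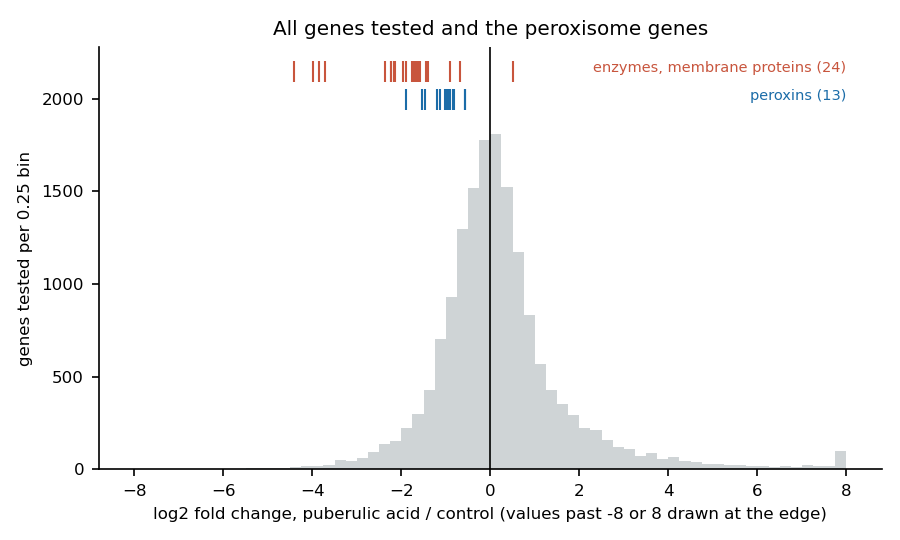
Histogram of the log2 fold changes of all 16266 genes tested, with 1 tick for each peroxin (lower row of ticks, 13 genes) and each enzyme or membrane protein (upper row, 24 genes). All ticks but that of Hacl1 lie to the left of 0.

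Among the peroxins, all 13 were lower, from a log2 fold change of -0.56 for Pex19 to -1.89 for Pex11g. The Pex11 genes, whose products shape and divide peroxisomes, had the steepest falls. Pex11g (ENSMUSG00000069633) stood at 24.9, 24.7, 24.8, 25.5 and 20.2 CPM in control replicates 1 to 5 and at 7.13, 6.39, 5.34, 6.89 and 6.56 CPM in puberulic acid replicates 1 to 5. The puberulic acid values lay close together and far below the lowest control, and the log2 fold change was -1.89 ± 0.11 (SE, adjusted p = 8.08e-08). Pex11a (ENSMUSG00000030545), a PPARA-inducible family member in rodents, stood at 91.2, 74.5, 65.3, 74.5 and 87.7 CPM in the controls. With puberulic acid Pex11a was at 30.2, 31.4, 26.6, 24.6 and 23.7 CPM (log2 fold change -1.53 ± 0.12, SE, adjusted p = 4.88e-07). The highest of these was under 0.5 times the lowest control.

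Import of matrix proteins needs the receptors Pex5 and Pex7, the docking proteins Pex13 and Pex14, the RING ubiquitin ligases Pex2 and Pex10, and the Pex6 ATPase with its membrane anchor Pex26, which recycle the receptor. Pex10 (ENSMUSG00000029047) came next to the Pex11 genes in the size of its fall, from 13.9, 18.5, 14.5, 12.2 and 17.2 CPM in control replicates 1 to 5 to 8.02, 4.05, 5.97, 4.07 and 5.21 CPM with puberulic acid (log2 fold change -1.48 ± 0.20, SE, adjusted p = 5.00e-05). It also had the fewest reads of any member, 94.6 estimated counts in puberulic acid replicate 2. Pex2 changed by -1.01 and Pex6 by -1.21 on the log2 scale. The receptor of the C-terminal targeting signal, Pex5, changed by -0.85 and the receptor of the N-terminal signal, Pex7, by -1.13. Pex14 changed by -0.95.

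The smallest falls among the peroxins were those of Pex19, Pex13 and Pex26. Pex13 (ENSMUSG00000020283) was at 48.1, 43.8, 40.9, 38.7 and 43.2 CPM in the controls and 35.7, 28.8, 29.2, 26.2 and 24.5 CPM with puberulic acid (log2 fold change -0.57 ± 0.11, SE, adjusted p = 0.00055). Puberulic acid replicate 1 lay just under the lowest control. Pex26 (ENSMUSG00000067825) was at 27.1, 25.9, 23.2, 22.3 and 27.1 CPM in the controls and 16.4, 15.0, 14.2, 12.3 and 13.3 CPM with puberulic acid (log2 fold change -0.82 ± 0.11, SE, adjusted p = 2.88e-05).

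Of the factors that place membrane proteins, Pex19 (ENSMUSG00000003464), the soluble chaperone, was at 115, 134, 106, 111 and 92.0 CPM in the controls. With puberulic acid it was at 85.2, 72.9, 75.3, 72.1 and 72.4 CPM (log2 fold change -0.56 ± 0.10, SE, adjusted p = 0.00039). Its membrane receptor Pex3 changed by -0.90 and Pex16 by -0.98 on the log2 scale. Scaling the libraries to total counts, which moves the median of all genes tested from 0.05 to 0.56, left Pex13 at -0.07 and Pex19 at -0.05, and neither passed the test in that setting (adjusted p = 0.575 and 0.642). Their falls are thus relative to the trimmed mean of M-values (TMM) scaling used throughout.

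**Figure D3:**
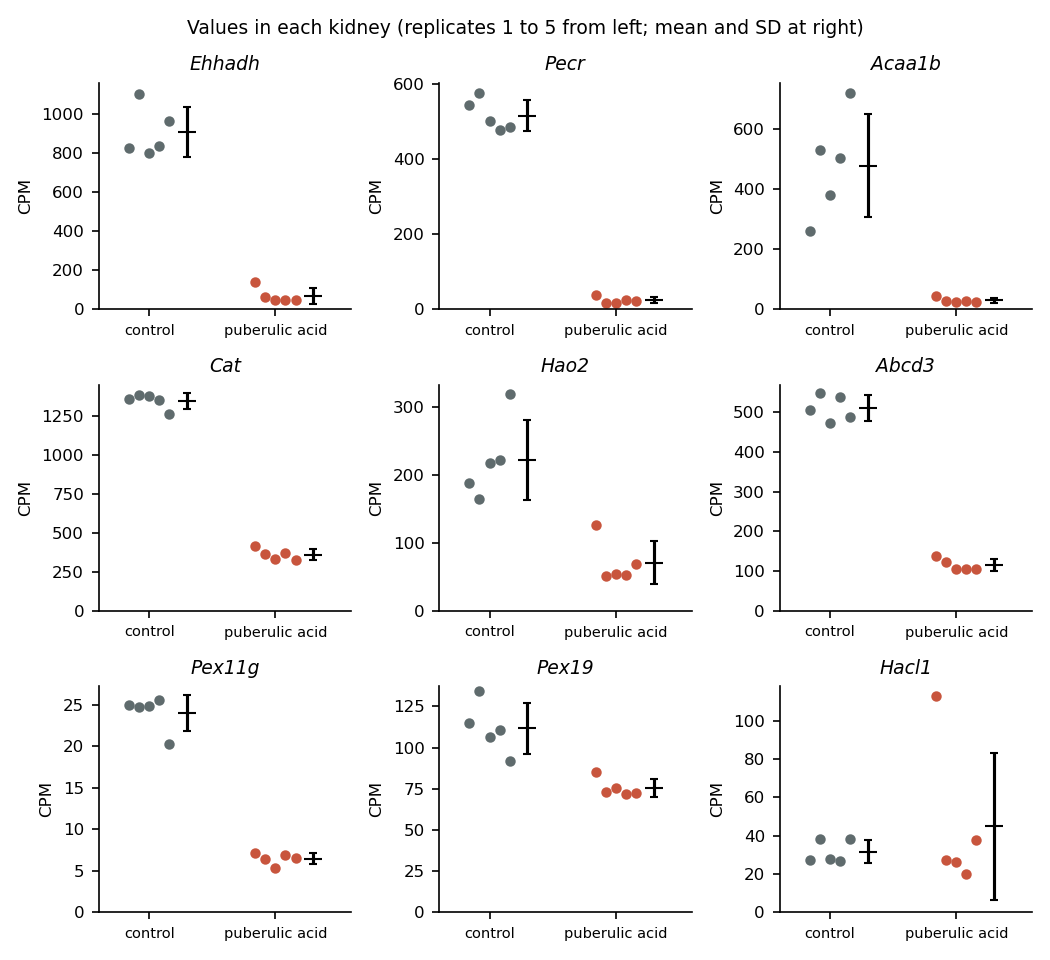
CPM of 9 of the genes in each kidney, with replicates 1 to 5 from left to right in each group and the mean and SD at the right of the points. The groups are apart in 8 panels, while in Hacl1 replicate 1 alone is high, at 113 CPM.

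All 12 beta oxidation genes were lower, each by at least 2-fold, with a median log2 fold change of -1.87. With total-count scaling the median was -1.36, and Decr2, at -0.89, fell by less than 2-fold. A set of 4 stood apart from the other 8 by the size of its decrease. Pecr, a trans-2-enoyl-CoA reductase, fell most of all 37 genes. Pecr (ENSMUSG00000026189) was at 543, 575, 500.4, 477 and 485 CPM in control replicates 1 to 5 and at 37.2, 18.4, 17.4, 24.8 and 22.7 CPM with puberulic acid. All 5 treated kidneys were under 0.1 times the lowest control, and the log2 fold change was -4.42 ± 0.21 (SE, adjusted p = 1.63e-08), a 21.4-fold decrease. Amacr (ENSMUSG00000022244), the racemase that prepares branched-chain acyl-CoAs for oxidation, was at 429, 403, 385, 325 and 235 CPM in the controls. With puberulic acid Amacr was at 38.3, 19.3, 17.1, 23.3 and 25.1 CPM (log2 fold change -3.85 ± 0.24, SE, adjusted p = 1.16e-07). Ehhadh, the L-bifunctional enzyme that hydrates and then dehydrogenates in the straight-chain pathway, went from 906.3 ± 126.9 to 69.0 ± 39.4 CPM (SD, n = 5 per group). Its log2 fold change was -3.71 (edgeR, adjusted p = 9.88e-07).

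The thiolase pair Acaa1a and Acaa1b, which cleave the last bond of each cycle, differed in size of change and in spread. Acaa1b (ENSMUSG00000010651) was at 260, 528, 379, 503 and 717 CPM in the controls and 45.1, 28.6, 26.1, 26.9 and 24.4 CPM with puberulic acid (log2 fold change -3.98 ± 0.28, SE, adjusted p = 2.57e-07). Its controls spread widely, and even the lowest, replicate 1, was far above the treated kidneys. Acaa1a (ENSMUSG00000036138) was at 133, 168, 177, 173 and 215 CPM in the controls and 66.4, 55.2, 57.3, 55.8 and 56.1 CPM with puberulic acid (log2 fold change -1.58 ± 0.12, SE, adjusted p = 4.53e-07). In both genes control replicate 1 was the lowest and control replicate 5 the highest. Their longest coding transcripts in GENCODE M21 were 96% identical over 1450 aligned bases. How reads shared by the pair were divided is not known from the counts, so the split between the 2 genes is uncertain.

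The other beta oxidation genes had log2 fold changes from -2.37 to -1.39. Hsd17b4 (ENSMUSG00000024507), the D-bifunctional enzyme, was at 231, 269.8, 227, 236 and 247 CPM in the controls and 92.4, 70.5, 69.2, 71.3 and 69.1 CPM with puberulic acid (log2 fold change -1.70 ± 0.10, SE, adjusted p = 7.73e-08). Decr2 (ENSMUSG00000036775), the peroxisomal dienoyl-CoA reductase, had the smallest decrease of the 12, from 99.2, 103, 92.5, 89.1 and 108 CPM to 51.5, 33.3, 36.4, 32.0 and 34.0 CPM (log2 fold change -1.39 ± 0.13, SE, adjusted p = 2.28e-06). Neither gene's groups overlapped, and replicate 1 was the highest treated kidney in both. The branched-chain and bile acid intermediate oxidases Acox3 and Acox2 changed by -2.37 and -1.97 on the log2 scale. Scp2, whose gene encodes a thiolase for branched chains and a sterol carrier protein, changed by -1.77. The dienoyl-CoA isomerase Ech1 changed by -1.74 and the carnitine octanoyltransferase Crot, which joins the shortened products to carnitine, by -1.73.

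The alpha oxidation genes went apart. Phyh (ENSMUSG00000026664), phytanoyl-CoA hydroxylase, was at 741, 645, 686, 580.2 and 537 CPM in the controls and 193, 114, 123, 125 and 125 CPM with puberulic acid (log2 fold change -2.23 ± 0.16, SE, adjusted p = 2.52e-07). Hacl1 (ENSMUSG00000021884), which cleaves the hydroxylated product in the next step, was at 27.1, 38.0, 27.8, 26.6 and 38.5 CPM in the controls and 113, 27.3, 26.3, 20.3 and 37.7 CPM with puberulic acid. Puberulic acid replicate 1 was far above the other 9 kidneys, and the remaining 4 treated kidneys overlapped the controls. The log2 fold change of Hacl1 was 0.51 ± 0.41 (SE, adjusted p = 0.298). Without puberulic acid replicate 1 it was -0.20 (adjusted p = 0.338), and with total-count scaling it was 1.01 (adjusted p = 0.0426). Exons of Hacl1 overlap on the same strand with those of the gene model Gm49387 in GENCODE M21, so reads of the pair may be shared. Gm49387 itself, looked up after these values were seen, had at most 15.3 estimated counts in any of the 10 libraries.

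The hydrogen peroxide system fell on both sides. Cat, which encodes catalase, went from 1345 ± 50.8 to 361 ± 36.1 CPM (SD, n = 5 per group), a 3.73-fold decrease with a narrow spread in both groups (log2 fold change -1.90 ± 0.09, SE, edgeR adjusted p = 1.68e-08). Dao (ENSMUSG00000042096), D-amino acid oxidase, was at 380, 422, 472, 469 and 479.7 CPM in the controls and 176, 71.4, 67.4, 77.8 and 83.7 CPM with puberulic acid (log2 fold change -2.22 ± 0.25, SE, adjusted p = 9.29e-06). Ddo (ENSMUSG00000063428), the D-aspartate oxidase, was at 42.9, 50.2, 50.3, 52.0 and 46.7 CPM in the controls and 22.5, 14.4, 14.8, 17.4 and 19.8 CPM with puberulic acid (log2 fold change -1.44 ± 0.13, SE, adjusted p = 1.42e-06). In both oxidases the treated kidneys lay below every control, with replicate 1 the highest of them. Hao2, a 2-hydroxy acid oxidase, changed by -1.64 ± 0.27 on the log2 scale (SE, adjusted p = 0.00018) and the widest control range of this group, 165 to 319 CPM.

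Both ether lipid enzymes were lower. Gnpat (ENSMUSG00000031985), which acylates dihydroxyacetone phosphate in the first step, was at 101, 119.5, 105, 96.5 and 98.1 CPM in the controls and 62.8, 57.2, 59.3, 47.5 and 50.7 CPM with puberulic acid (log2 fold change -0.91 ± 0.10, SE, adjusted p = 6.25e-06). Agps (ENSMUSG00000042410), which exchanges the acyl chain for an alkyl chain in the next step, was at 416, 407, 371, 303 and 245 CPM in the controls and 199, 135, 103, 95.3 and 115 CPM with puberulic acid (log2 fold change -1.43 ± 0.21, SE, adjusted p = 8.87e-05). Control replicate 5 was the lowest control for Agps, and it was still above the highest treated kidney. Exons of Gnpat, and of Crot among the beta oxidation genes, overlap another gene model on the same strand in GENCODE M21, so part of their reads may be shared.

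Membrane proteins ranged from small to large decreases. Pxmp2 (ENSMUSG00000029499), a channel-forming protein of the peroxisomal membrane, was at 53.0, 62.1, 73.4, 68.6 and 72.2 CPM in the controls and 21.9, 13.8, 12.3, 12.8 and 12.2 CPM with puberulic acid (log2 fold change -2.17 ± 0.17, SE, adjusted p = 6.11e-07). Abcd3, an ABC transporter that brings in branched-chain and dicarboxylic acyl-CoAs, changed by -2.14 ± 0.10 (SE, adjusted p = 1.68e-08), from 510.4 ± 31.8 to 115 ± 15.0 CPM (SD, n = 5 per group). Pxmp4 changed by -1.62 on the log2 scale. Slc25a17 (ENSMUSG00000022404), a carrier of coenzyme A and other nucleotide cofactors, was at 130.5, 129.9, 117, 119 and 121 CPM in the controls and 69.4, 85.7, 80.0, 81.5 and 68.5 CPM with puberulic acid (log2 fold change -0.68 ± 0.08, SE, adjusted p = 2.23e-05). Replicate 1 was among the lower treated kidneys for Slc25a17, unlike in most of the other genes. With total-count scaling its log2 fold change was -0.17 (adjusted p = 0.0679).

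The treated samples were not alike. Puberulic acid replicate 1 was the highest of its group for 35 of the 37 genes, 12 of the 13 peroxins among them, and replicate 5 was the lowest for 15. The median over the 37 genes of log2(CPM / control mean) was -1.15 in replicate 1 and between -1.71 and -1.67 in replicates 2 to 5. For the beta oxidation genes the medians were -1.43 in replicate 1 and between -2.18 and -2.05 in the others, and leaving replicate 1 out took the fitted median of that group from -1.87 to -2.11. Replicate 1 was also the treated kidney with the highest summed markers of every tubule segment: the sum over all proximal segments is given above, and the sums were 971 CPM for segments S1 and S2 (at most 392 in the other treated kidneys), 678 CPM for segment S3 (at most 631, a small lead), 5507 CPM for the thick ascending limb (at most 3702), 822 CPM for the distal tubule (at most 356) and 318 CPM for the collecting duct (at most 202). The part of these differences in the values of replicate 1 was not tested. Among the controls no library took such a place: replicate 2 was the highest for 13 genes, and replicates 1 and 5 for 9 each. Control replicate 5 was the lowest for 14 genes.

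**Figure D4:**
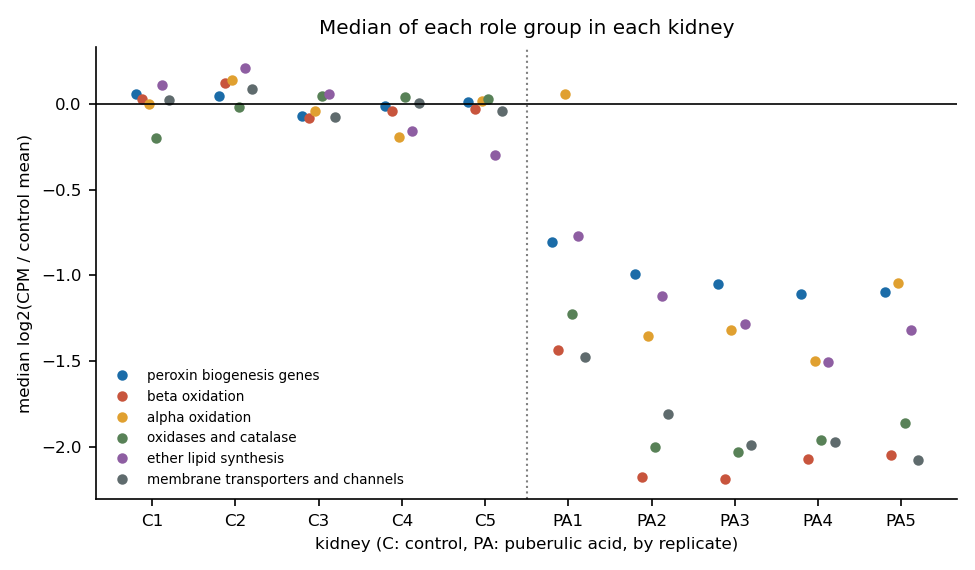
Median of log2(CPM / control mean) over the genes of each role group (y axis) in each of the 10 kidneys (x axis). In all 5 puberulic acid kidneys (PA) the medians lie below those of the controls (C) for every role group, except for the alpha oxidation pair in replicate 1, and replicate 1 is the highest treated kidney in each group.

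Promoter sequences were looked at because the genes moved together. RefSeq windows of 300 bases on build GRCm38.p6, from 250 bases before to 50 after the transcription start, were at hand for 32 of the 37 genes. They were searched on both strands for AGGTCA, the half-site bound by PPARA, RXRA, HNF4A and related nuclear receptors, for the PPARA direct repeat of 2 half-sites with 1 base between them, and for TNAAGGTCA, the extended half-site of estrogen-related receptors, which also contains the half-site. The half-site was found in 6 of the 32 genes (18.8%), namely Cat, Dao, Ddo, Pex11g, Phyh and Scp2, against 15.6% of the tested genes with a window and 16.3% of all windows. The direct repeat and the extended half-site matched in 0 of the 32, against 13 and 421 of all 32851 windows. A match is a description of the letters and not of binding, and enhancers outside these windows were not searched. The 4 windows below are those of the gene with the largest fall (Pecr), the peroxin with the largest fall (Pex11g), catalase (Cat), and the gene that was not lower (Hacl1). They are written 5′ to 3′ on the strand of the gene, which is the minus strand in all 4, with the half-site, on either strand, in capitals. Only Pex11g and Cat hold a match. The positions are chr1:72284272-72284571 for Pecr, chr8:3467599-3467898 for Pex11g, chr2:103485104-103485403 for Cat and chr14:31640916-31641215 for Hacl1.
Pecr: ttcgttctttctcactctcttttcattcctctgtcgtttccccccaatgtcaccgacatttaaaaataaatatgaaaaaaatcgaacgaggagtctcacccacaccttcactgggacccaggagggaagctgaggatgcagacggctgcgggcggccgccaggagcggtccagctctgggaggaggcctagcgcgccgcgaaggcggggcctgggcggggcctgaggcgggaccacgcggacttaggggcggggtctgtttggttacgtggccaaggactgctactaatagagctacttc
Pex11g: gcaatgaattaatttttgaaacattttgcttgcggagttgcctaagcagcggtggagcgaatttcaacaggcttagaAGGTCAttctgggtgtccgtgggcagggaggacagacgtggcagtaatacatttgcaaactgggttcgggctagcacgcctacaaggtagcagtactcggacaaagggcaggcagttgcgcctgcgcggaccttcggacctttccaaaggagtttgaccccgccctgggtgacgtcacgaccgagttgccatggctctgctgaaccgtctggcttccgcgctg
Cat: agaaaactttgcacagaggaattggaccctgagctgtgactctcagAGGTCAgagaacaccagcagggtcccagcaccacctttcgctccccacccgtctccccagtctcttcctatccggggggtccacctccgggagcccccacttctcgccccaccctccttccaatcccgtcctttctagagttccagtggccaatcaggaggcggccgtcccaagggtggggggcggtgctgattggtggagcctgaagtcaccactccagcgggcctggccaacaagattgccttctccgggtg
Hacl1: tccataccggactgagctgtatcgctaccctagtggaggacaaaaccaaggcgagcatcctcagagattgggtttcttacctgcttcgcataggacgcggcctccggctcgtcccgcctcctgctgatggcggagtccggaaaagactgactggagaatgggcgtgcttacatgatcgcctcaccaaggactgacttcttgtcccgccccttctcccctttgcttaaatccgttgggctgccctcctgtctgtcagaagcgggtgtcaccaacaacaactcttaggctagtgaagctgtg

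Further peroxisomal genes, taken from a list of 56, showed the same lean with some exceptions. Of the 52 tested, 40 were lower, 3 were higher and 9 did not pass the test, where 31.1% of all genes tested were lower and 34.2% higher. The median log2 fold change was -1.12, against 0.05 over all genes. The largest falls were those of Nudt19, a coenzyme A hydrolase (log2 fold change -3.51), Acot3, an acyl-CoA thioesterase (-2.93), and Slc27a2, a very long-chain acyl-CoA synthetase and fatty acid transporter (-2.85). Slc27a2 went from 5233 ± 171 to 724.1 ± 89.1 CPM (SD, n = 5 per group). Without puberulic acid replicate 1, Acot3 stood at -3.85, below Nudt19. The 3 genes that rose were Uox, Acot5 and Acsl4. Uox, urate oxidase of the peroxisome core, had at most 3 counts in any control and 2.15, 5.62, 3.26, 3.79 and 3.57 CPM in the treated kidneys. Their mean was at least 20.4-fold higher than the mean of the control floors of 3 counts per library (edgeR, adjusted p = 4.44e-06). Acsl4, an arachidonate-preferring acyl-CoA synthetase, went up from 42.4 ± 5.96 to 88.1 ± 12.1 CPM (SD, n = 5 per group; log2 fold change 1.05, edgeR adjusted p = 1.14e-05). Acot3 and Acot5 also belong to a family of related genes, for which the division of shared reads was not tested. Total-count scaling gave 26 lower and 9 higher in this list.

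PPARA is the nuclear receptor that, with RXRA, drives many genes of peroxisomal and mitochondrial fatty acid oxidation in rodents. In a list of 39 genes holding PPARA, its partners and its targets, 36 were tested, of which 28 were lower, 3 higher and 5 not called, beside the same 31.1% lower and 34.2% higher among all genes. The median log2 fold change of the list was -1.22, against 0.05 over all genes. Ppara itself, named after its values were seen, was at 28.8, 20.5, 27.0, 8.10 and 21.9 CPM in the controls and 9.61, 3.62, 5.51, 2.89 and 6.78 CPM with puberulic acid (log2 fold change -1.90 ± 0.37, SE, adjusted p = 0.00071). The groups overlapped, since control replicate 4 was below puberulic acid replicate 1. The largest falls were those of the cytochrome P450 genes Cyp4b1 (-4.61), Cyp4a14 (-4.16) and Cyp4a10 (-2.96), of a family that hydroxylates fatty acids. Without puberulic acid replicate 1, Cyp4a14 stood at -4.84, slightly below Cyp4b1. Cyp4a10 and Cyp4a14 belong to a family of related genes, and how shared reads were divided among its members was not tested.

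The 3 genes of this list that rose are known PPARA targets too. Plin2, which coats lipid droplets, rose from 107, 105, 91.8, 111 and 121 CPM to 339, 454, 394, 424 and 332 CPM (log2 fold change 1.86 ± 0.11, SE, adjusted p = 9.02e-08). Pdk4, a kinase that shuts pyruvate dehydrogenase, rose from 12.8, 21.3, 16.5, 14.9 and 41.8 CPM to 73.5, 125, 119, 85.1 and 56.6 CPM (log2 fold change 2.10 ± 0.33, SE, adjusted p = 0.00014). Hilpda, a droplet protein that inhibits lipolysis and is also induced by hypoxia, rose by 1.82 ± 0.22 on the log2 scale (SE, adjusted p = 2.02e-05). In all 3 the lowest treated kidney was above the highest control.

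**Figure D5:**
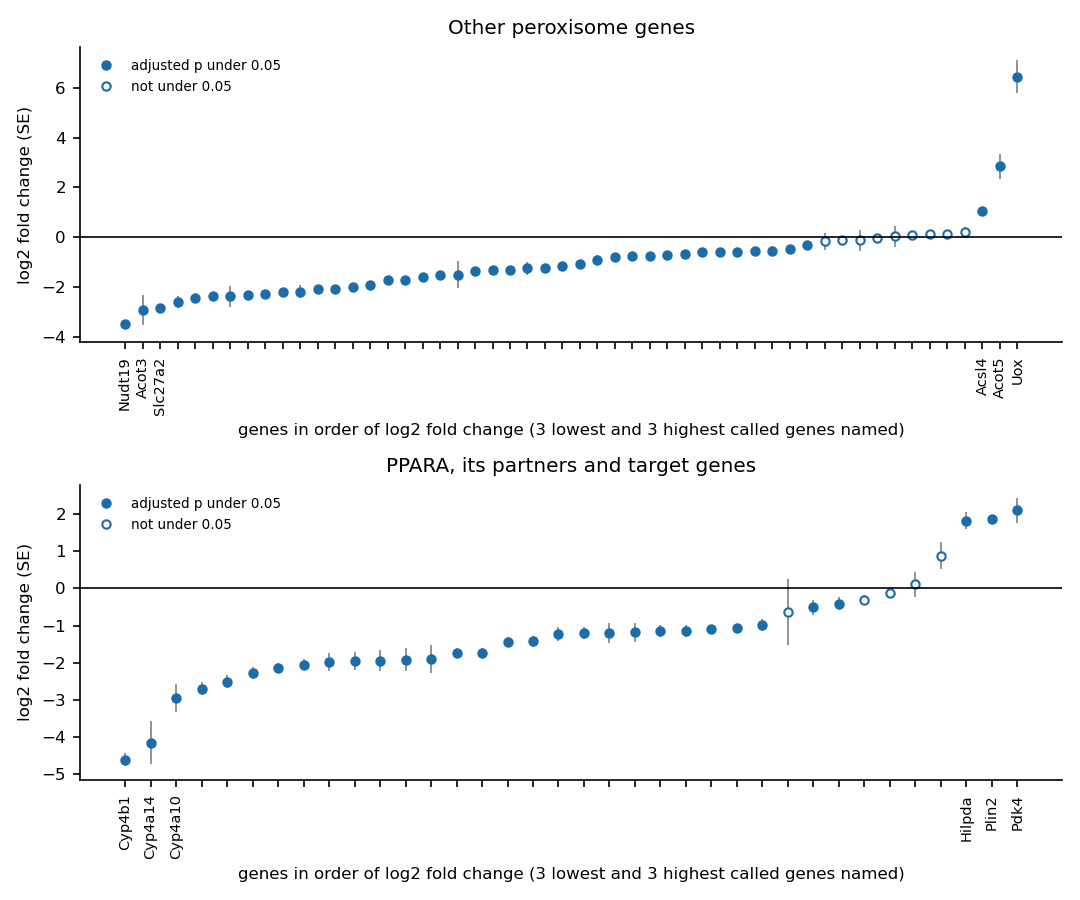
Log2 fold change with its standard error (bars) for each tested gene of the list of other peroxisomal genes (top, 52 genes) and of the PPARA list (bottom, 36 genes), in order of size. Filled points had an adjusted p under 0.05, and 3 genes in each panel lie above 0 with a filled point. The fitted value of Uox, with at most 3 counts in a control, depends on the prior count of the fit.

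The controls also differed among themselves in these genes. Cyp4a14 was at 67.4, 212, 70.6, 171 and 331 CPM in control replicates 1 to 5. Like Acaa1b, given above, it had its lowest value in control replicate 1 and its highest in control replicate 5. Hao2 too was highest in control replicate 5, at 319 CPM, while Crot, Amacr, Agps and Phyh were lowest there. Leaving out any single control left 36 of the 37 genes lower.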

How the data were processed

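Poly(A) RNA of whole kidney was sequenced from directional libraries, per the labels' protocols. The authors deposited salmon-type estimated counts for each gene, without normalization, in 1 table; the submitters' processing notes name fastp 0.22.0, Salmon 1.10.3, DESeq2 and the build GRCm39, and the annotation release is not given in the sources used here. Of 20 sample columns, 10 were matched by name to control and puberulic acid samples, and the other 10 were not used. Gene symbols were found for 51344 of 55822 identifiers. Counts were rounded to whole numbers, filtered with filterByExpr, scaled with TMM factors and tested with edgeR 4.0.16 (glmQLFit and glmQLFTest, robust off; limma 3.58.1, R 4.3.3) on these 10 samples, with no covariate. Benjamini-Hochberg adjustment covered all 16266 genes, and an adjusted p under 0.05 was called. The standard error was taken as |log2 fold change| over the root of the F statistic, and a fold is 2 to the power of that change. CPM is edgeR's cpm on the TMM-corrected library size. The fit was run on simulated data in which few genes changed, in equal numbers up and down. That simulation does not test the scaling of these data, where 65.3% of genes passed the test. The TMM factors were 0.827 to 0.848 in the controls and 1.17 to 1.26 with puberulic acid.

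Values in every sample were given for the 3 lowest and 3 highest log2 fold changes of the peroxin and beta oxidation groups, the lowest and highest of the other role groups, genes not called, and the pair Acaa1a and Acaa1b; from each further list the 3 lowest and 3 highest called genes were named. The members, lists and tests were chosen with earlier results of these data known. Alternatives were other scalings, filters, DESeq2 1.42.0, a robust fit, a replicate block, and leaving out each sample. The labels number the samples of a group and do not tie each to an animal, so p-values measure the spread between these samples, which may in part be technical. 1 item of the PPARA list is not reported here and was left out of its counts.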

Additional observations from a re-analysis of the deposited data

Results flagged for a closer look

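Each of the 37 genes, and both shares of counts, was searched in each group of 5 for a kidney whose gap to its nearest neighbour was over 0.71 of the range of the group. Such a kidney was found in 17 of 78 groups of values, where chance gives about 3.9 if values were independent, which those of related genes are not. In 15 of the 17 it was puberulic acid replicate 1, and in each of these it was the highest of its group.

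The beta oxidation genes held 8 of these: Acox2 at 50.8 CPM (others up to 27.6), Acox3 at 67.8 CPM (up to 46.5), Ehhadh at 138.5 CPM (up to 62.7), Hsd17b4 at 92.4 CPM (up to 71.3), Acaa1a at 66.4 CPM (up to 57.3), Acaa1b at 45.1 CPM (up to 28.6), Scp2 at 398 CPM (up to 275.6) and Decr2 at 51.5 CPM (up to 36.4). In the same replicate Pex19 was at 85.2 CPM (others up to 75.3), Phyh at 193 CPM (up to 125), Hao2 at 127 CPM (up to 69.7), Dao at 176 CPM (up to 83.7), Pxmp2 at 21.9 CPM (up to 13.8) and Hacl1 at 113 CPM (up to 37.7). The share of counts of the enzymes and membrane proteins was 0.356% in replicate 1 and at most 0.247% in the others. For all of these but Hacl1 replicate 1 was still below every control.

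In the controls, replicate 5 was the lowest for Pex11g, at 20.2 CPM against 24.7 to 25.5 CPM, and for Cat, at 1258 CPM against 1352 to 1384 CPM.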

How the results depend on the processing

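Over 19 alternatives, 33 of the 36 lower genes stayed lower with an adjusted p under 0.05 in every one, and the other 3 (Pex13, Pex19 and Slc25a17) missed it with total-count scaling only. That scaling called 34 of the 37 genes, 33 lower and 1 higher (Hacl1), and over all genes 9179 higher and 2526 lower against 5564 and 5058. Its medians were -1.07 over the 37 genes, -0.48 for peroxins, -1.36 for beta oxidation, -0.35 for alpha oxidation, -1.26 for oxidases and catalase, -0.66 for ether lipid synthesis and -1.38 for membrane proteins, all still below 0 and below the median of all genes, 0.56. The further lists then held 26 lower and 9 higher (other peroxisomal genes) and 5 higher (PPARA list). Upper-quartile scaling gave the peroxins a median of -0.89. Leaving out 1 sample at a time gave 3 to 5 genes higher in each further list, the 5 without control replicate 1 and without control replicate 4, a beta oxidation median of -2.11 to -1.82 with the lowest value without puberulic acid replicate 1, and 36 lower genes each time. Without puberulic acid replicate 1, Hacl1 had a log2 fold change of -0.20 in place of 0.51, and leaving out other samples gave up to 0.66. The cause of these changes was not tested. With the replicate block 36 of the 37 genes were called and 10325 of all genes against 10622. Correlations of the deviations of same-numbered samples ran from -0.172 to 0.039, so no shared deviation was seen. Such low correlations do not show that the samples were unpaired by design. Depth limits no member: the lowest count was 94.6.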
